A study of Rattus norvegicus with 15 samples.

Results

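Solute carrier transporters were followed across rat liver that was normal, cirrhotic or carcinomatous. A probe was included when the array platform annotation gave it exactly 1 gene symbol beginning with Slc, which takes in the Slco organic anion polypeptides. The glucose carriers Slc2a1 and Slc2a3 and the lactate carrier Slc16a3 were left out by rule. This gave 113 probes for 112 genes, of 3757 probes in all and 3440 with a single symbol. All 113 matched a RefSeq gene of the same symbol. The substrate class was taken from the family number, and by member within families 5, 17 and 22, whose carriers move different substrates. This gave 17 amino acid or peptide carriers, 19 organic anion carriers, 6 organic cation or choline carriers and 5 sugar carriers. The remaining probes were 24 ion carriers, 16 neurotransmitter and family 6 carriers, 7 mitochondrial carriers, 6 metal carriers and 13 carriers of other substrates.

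Total RNA came from male Fischer344 rats, 1 control being labelled only Fischer, with 5 samples in each of 3 groups and 1 array for each sample. Control liver was normal liver after 70 weeks on a basal diet. Cirrhotic liver was the noncancerous tissue around hepatocellular carcinomas, and carcinoma was the tumor itself, both after 70 weeks on a choline-deficient diet whose protein was replaced by defined L-amino acids. The labels do not say which cirrhotic and carcinoma samples came from the same animal, so p-values measure only the spread between these samples. Diet and liver damage cannot be told apart between the control group and the other groups. In bulk tissue, fewer cells of a type and less RNA per cell cannot be told apart.

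Solute carriers are membrane proteins that move bile acids, amino acids, sugars, ions and vitamins down gradients, or against them when coupled to another solute. Hepatocytes use sodium-driven and sodium-independent carriers on the blood-facing membrane to take up bile acids, drugs and organic anions, and pumps of the ABC family to send them into bile. Amino acid, nucleoside and zinc carriers supply growth and metabolism, and many carriers first described in kidney, gut or nerve endings are also represented on general arrays.

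Among the organic anion carriers and the sodium-proton exchangers, 5 genes had all 5 samples of a tissue beyond all 5 of another. The upstream sequences of these 5 carriers are printed. They are the 120 bases before the RefSeq gene start on GRCr8, 5′ to 3′ on the coding strand, with capitals marking any match to 4 short motifs. The regions are chr6:106357945-106358064 for Slc10a1, chr17:41681175-41681294 for Slc17a1, chr4:176681993-176682112 for Slco1a1, chr4:176749724-176749843 for Slco1a3 and chr1:30996003-30996122 for Slc9a3, all on the minus strand.
Slc10a1: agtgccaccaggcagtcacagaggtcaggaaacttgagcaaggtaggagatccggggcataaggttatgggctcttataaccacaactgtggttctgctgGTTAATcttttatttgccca
Slc17a1: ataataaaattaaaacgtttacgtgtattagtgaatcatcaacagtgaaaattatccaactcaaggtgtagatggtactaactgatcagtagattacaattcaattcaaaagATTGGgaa
Slco1a1: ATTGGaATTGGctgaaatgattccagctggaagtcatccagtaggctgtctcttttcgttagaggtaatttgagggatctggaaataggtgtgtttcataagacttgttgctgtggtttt
Slco1a3: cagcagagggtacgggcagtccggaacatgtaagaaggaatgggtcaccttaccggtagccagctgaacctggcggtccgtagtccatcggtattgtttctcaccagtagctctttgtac
Slc9a3: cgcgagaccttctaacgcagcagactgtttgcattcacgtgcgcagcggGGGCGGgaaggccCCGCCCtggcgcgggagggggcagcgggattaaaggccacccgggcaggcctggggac

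The motifs were the TATA box TATAAA, the HNF1 half-site GTTAAT, the CCAAT box CCAAT and the GC box GGGCGG, each searched with its reverse complement except the TATA box, which was read on the coding strand. Slc10a1 held an HNF1 half-site starting 20 bases before the gene start. Slc17a1 held a CCAAT box starting 8 bases before it, Slco1a1 held CCAAT boxes at 120 and 114 bases, and Slc9a3 held GC boxes at 71 and 58 bases. None of these letters was in the Slco1a3 window. Over the full 250 bases upstream, 98 of the 112 genes matched a promoter, and the HNF1 half-site was in 10.2% of these 98 against 6.465% of all 27457 promoters. The GC box was in 47.96% of the 98 against 32.39%, the CCAAT box in 30.61% against 34.29% and the TATA box in 10.2% against 8.38%. A match describes letters only and is not a measured site.

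The deposited values are ratios in which each probe is divided by its own median over the 15 arrays, so they compare samples for 1 probe and hold no level of one gene against another. That scale was found from the values, and the labels do not state the direction. Larger ratios are read here as more transcript, and every sign below would turn if the direction were the opposite. The values below are log2 ratios after quantile normalization, and each difference is a limma estimate with its 95% interval and an adjusted p over all 3757 probes. Array medians of the deposited ratios ran from 0.919 to 1.02. Solute carrier probes had a value at the lower limit of 0.01 in 1.36% of their readings (23 of 1695) against 1.17% over all probes. Of those 23, 9 were in control 1 and 8 in cirrhotic 1, the arrays with the most limit values overall (229 and 209 probes). Beyond the carriers marked below, limit values enter the differences of Slc4a4, Slc6a6, Slc7a9, Slc9a5, Slc15a4, Slc22a2 and Slc30a1. The within-group SD had a median of 1.01 over the carriers, from 0.42 for Slc25a20 to 2.196 for Slc30a1, against 0.97 over all probes.

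In cirrhotic against control liver, carriers of many classes had higher ratios, among them the sodium-proton exchanger Slc9a3, the neutral amino acid carrier Slc6a15, the peptide carrier Slc15a2 and the anion carriers Slco1a1, Slc17a1 and Slc10a1. The median difference over the 113 probes was 0.46 against 0.02 over all probes, and 81 were above 0, or 71.7% against 50.7% of all probes. No carrier passed an adjusted p of 0.05 in limma, as for 0% of all probes, and the smallest adjusted p among the carriers was 0.307. At an unadjusted p under 0.05 there were 14 carriers, 12.4% against 9.64% of all probes, and 12 of them were higher, 10.6% against 4.02%. Those 12 were Slc5a6, Slc6a15, Slc7a3, Slc9a3, Slc9a4, Slc10a1, Slc12a1, Slc15a2, Slc17a1, Slc18a2, Slc18a3 and Slco1a1. The 2 lower carriers, 1.77% against 5.62% of all probes, were the mitochondrial dicarboxylate carrier Slc25a10 and the copper carrier Slc31a1. All 5 cirrhotic samples lay above all 5 controls for Slc6a15, Slc9a3, Slc10a1 and Slc17a1, while 0.665% of all probes separated that way.

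Carcinoma against control showed no general shift of the carriers. The median difference was -0.06 against 0.00 over all probes, and it turned to 0.03 when arrays were scaled to a common median and to 0.0071 without normalization. Of the 113 probes, 54 were above 0, or 47.8% against 50.1% of all probes. At an unadjusted p under 0.05 there were 4 carriers, 3.54% against 7.4% of all probes, and these 4 were higher in carcinoma, against 3.65% of all probes, while 0 were lower, against 3.75%. They were Slc15a2, the zinc carrier Slc30a2 and the anion carriers Slc22a7 and Slc22a25. Slc15a2 and Slc30a2 separated the groups completely with carcinoma higher, 1.77% against 1.89% of all probes in either direction and 1.06% in that one. None passed adjustment in limma (0% of all probes), with a smallest adjusted p of 0.485.

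Carcinoma against the surrounding cirrhotic liver gave mostly lower ratios, led by Slc9a3, Slco1a3, the sodium-potassium-chloride carrier Slc12a2, Slc18a3 and Slc3a1, while the sulfate carrier Slc26a2 and the nucleoside carrier Slc29a1 were higher. The median difference was -0.47 against -0.02 over all probes, and 78 of the 113 were below 0, or 69.0% against 50.7%. At an unadjusted p under 0.05 there were 17 carriers, 15.04% against 13.2% of all probes, of which 14 were lower (12.4% against 6.28%) and 3 higher (2.65% against 6.95%). Complete separation was found for 7 carriers, 6.19% against 2.71% of all probes. Slc6a18, Slc9a3, Slc18a2, Slc18a3, Slco1a1 and Slco1a3 were the 6 lower, against 1.46% of all probes, and Slc26a2 the 1 higher, against 1.25%. The limma test called 0 after adjustment (0% of all probes), with a smallest adjusted p of 0.224. The cirrhotic samples are shared with the comparison against control, so a carrier high in them enters both comparisons.

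Scaling the arrays differently moved the balance of directions. With arrays scaled to a common median, 9 of 12 carriers at an unadjusted p under 0.05 were higher in cirrhotic than in control liver, and 4 of 12 were higher in carcinoma than in cirrhotic liver. Those 12 were 10.6% of the carriers in each case, against 7.67% and 10.2% of all probes. Without any normalization the counts were 9 of 12 (10.6% of carriers against 7.64% of all probes) and 3 of 11 (9.73% against 9.93%). The median over all probes then shifted as well, to 0.11 in cirrhotic minus control under either choice, and to 0.15 and 0.13 in carcinoma minus control. No scaling turned the sign of the carriers' median in cirrhotic minus control or in carcinoma minus cirrhotic.

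**Figure D1:**
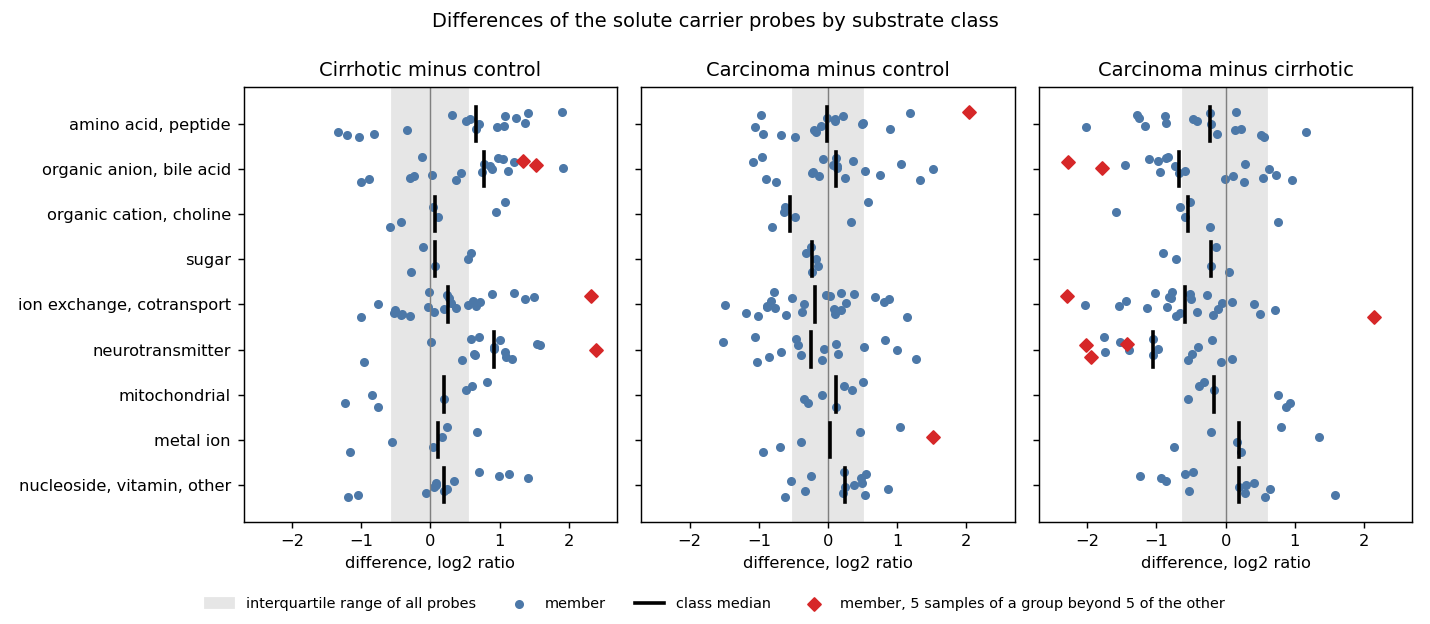
Differences of the 113 solute carrier probes by substrate class, in 3 panels for cirrhotic minus control, carcinoma minus control and carcinoma minus cirrhotic liver (horizontal axis, difference in log2 ratio; vertical axis, class). Each point is 1 probe, the bar its class median, the grey band the interquartile range of all 3757 probes, and a diamond marks a carrier whose 2 groups of 5 do not overlap. The neurotransmitter class sits highest in the first panel, with a median of 0.91, and lowest in the third, with a median of -1.04.

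The position of a probe in the array numbering went with these shifts. Of the carriers, 73 have a probe number under 2000 and 40 from 2000 upward. In cirrhotic minus control, the 73 had a median difference of 0.77 with 90.4% above 0, where all 1884 probes of those numbers had a median of 0.46 with 76.6% above 0. The 40 had a median of -0.35 with 37.5% above 0, where all 1873 probes there had -0.46 and 24.7%. The 12 higher carriers all lay under 2000, where they were 16.4% of the members against 7.86% of all probes, and the 2 lower carriers both lay from 2000 upward, 5% against 10.9%. In carcinoma minus cirrhotic, the 14 lower carriers all lay under 2000, 19.2% against 12.05% of all probes there, and the 3 higher all lay from 2000 upward, 7.5% against 11.8%. Complete separation followed the same split. The 4 carriers separated higher in cirrhotic minus control all lay under 2000, where 1.33% of all probes separated that way. In carcinoma minus cirrhotic, the 6 separated lower lay under 2000 (2.87% of all probes there) and the 1 separated higher from 2000 upward (2.35%). The labels and files do not say what the numbering stands for, and its part in the differences was not tested.

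The fit was therefore also run after subtracting, on each array, a running median over 101 probes taken in the order of their numbers. Values after this step are called trend-removed. In cirrhotic minus control the carriers' median became 0.19 with 76 of 113 above 0, against 50% of all probes, and 6 carriers were at an unadjusted p under 0.05, 5.31% against 4.02% of all probes. These 6, all higher in cirrhotic liver (2.18% of all probes, with 1.84% lower), were Slc6a15, Slc9a3, Slc15a2, Slc18a2, Slc18a3 and Slco1a1. In carcinoma minus control 8 carriers had an unadjusted p under 0.05, 7.08% against 8.49% of all probes, with 5 higher (4.42% against 4.39%) and 3 lower (2.65% against 4.1%). In carcinoma minus cirrhotic the median became -0.28 and 11 carriers had an unadjusted p under 0.05, 9.73% against 9.82% of all probes, of which 9 were lower (7.96% against 4.26%) and 2 higher (1.77% against 5.56%). Complete separation of trend-removed values was found for 3 carriers in cirrhotic minus control (2.65% against 0.452% of all probes), 5 in carcinoma minus control (4.42% against 2.02%) and 4 in carcinoma minus cirrhotic (3.54% against 1.36%). Those last 4 were Slc9a3, Slc18a2, Slc18a3 and the carnitine-acylcarnitine carrier Slc25a20. No carrier passed an adjusted p of 0.05 there in limma.

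**Figure D2:**
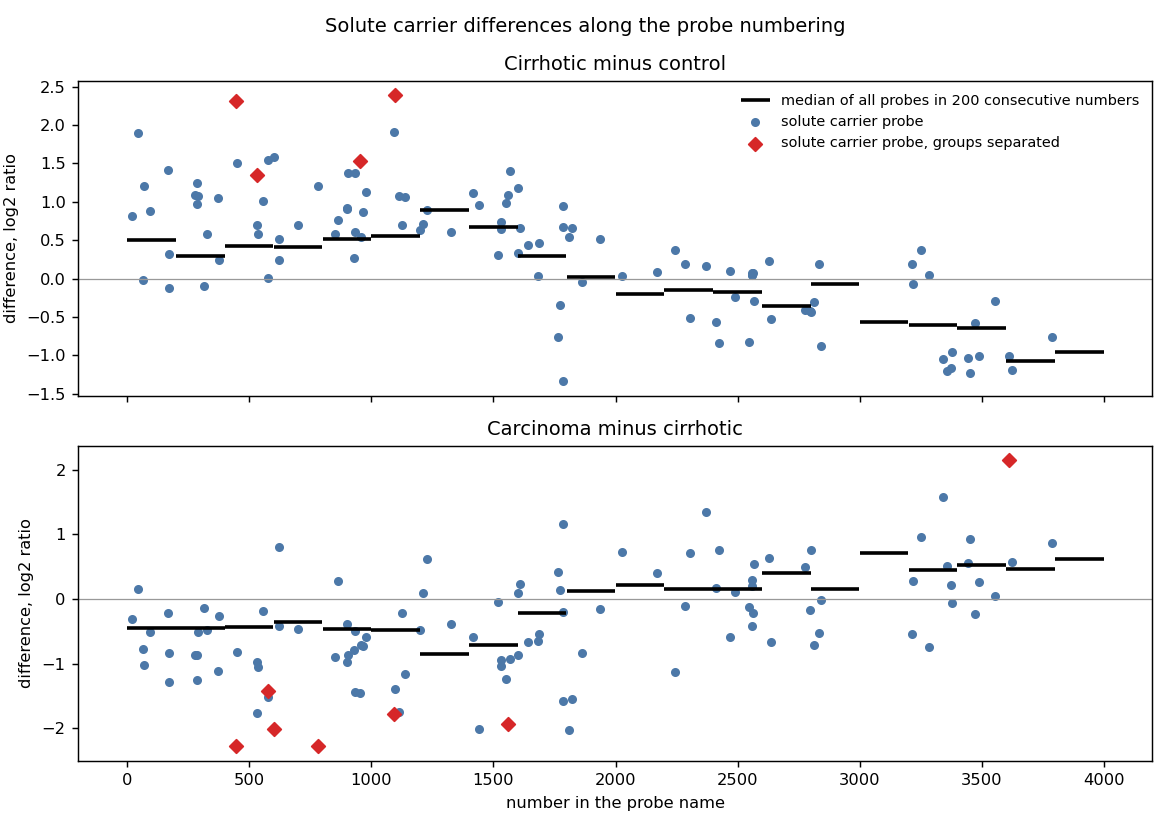
Difference in log2 ratio (vertical axis) against probe number (horizontal axis) for the 113 solute carriers, in cirrhotic minus control and carcinoma minus cirrhotic liver. A diamond marks a carrier whose 2 groups do not overlap. Bars give the median of all probes in each block of 200 numbers, which in cirrhotic minus control was 0.50 in the lowest block and -1.07 for numbers 3600 to 3799.

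Medians over the 113 carriers in single samples ran from -0.34 to 0.02 in control, from 0.10 to 0.31 in cirrhotic and from -0.36 to 0.13 in carcinoma samples. Every cirrhotic sample lay above every control, and the carcinoma samples overlapped both groups. In trend-removed values the ranges were -0.16 to -0.01, 0.03 to 0.34 and -0.23 to 0.06, and cirrhotic and control samples again did not overlap.

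Organic anion carriers had a median difference of 0.77 in cirrhotic minus control, 0.11 in carcinoma minus control and -0.67 in carcinoma minus cirrhotic liver, with 14, 11 and 7 of 19 above 0. Trend-removed medians were 0.32, 0.00 and -0.32. The Slco members alone covered differences from -1.01 to 1.91 in cirrhotic minus control.

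Slc10a1 encodes NTCP, the sodium-driven carrier that takes bile acids from the blood into hepatocytes. Its log2 ratios were -0.15, -0.76, -0.56, -1.59 and -0.27 in control 1 to 5, and 1.60, 0.24, 0.39, 0.12 and 1.05 in cirrhotic 1 to 5. The carcinomas read 1.59, 0.29, -1.76, -1.58 and -0.03. Every cirrhotic sample was above every control, while the carcinomas spread from below the lowest control to near the highest cirrhotic sample. The cirrhotic mean of 0.68 ± 0.63 (SD, n = 5) was 1.34 (0.13 to 2.56) above the control mean of -0.67 ± 0.57, a 2.54-fold ratio with a limma adjusted p of 0.478. Carcinoma minus control was 0.37 (-0.85 to 1.58) and carcinoma minus cirrhotic -0.98 (-2.19 to 0.24). The trend-removed difference from control was 0.95 (-0.01 to 1.92), still without overlap.

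Slc10a2, the sodium-driven bile acid carrier of ileum and bile duct epithelium, had differences of 0.74, -0.21 and -0.95 in the order cirrhotic minus control, carcinoma minus control and carcinoma minus cirrhotic, which is kept below. All 3 intervals included 0.

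Slc17a1 encodes a sodium-phosphate carrier that also moves urate and other organic anions. Control 1 to 5 read -0.16, -1.18, -0.72, -0.74 and -1.003, and cirrhotic 1 to 5 read 1.43, 0.22, 1.28, 0.10 and 0.80. Carcinoma 1 to 5 read 0.79, -0.02, -2.27, -2.20 and 0.28. Control values were the tightest, cirrhotic samples all lay above them, and carcinomas 3 and 4 lay below every other sample. The cirrhotic minus control difference was 1.53 (0.26 to 2.79, limma adjusted p = 0.421), and carcinoma minus cirrhotic was -1.45 (-2.72 to -0.19, limma adjusted p = 0.317). The 2 trend-removed differences were 1.02 and -1.03, both with intervals that included 0, and cirrhotic and control samples overlapped.

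Slco1a1 encodes Oatp1a1, a sodium-independent carrier of bile acids, steroid conjugates and drugs on the blood side of hepatocytes. Its control values were -2.39, -2.62, 1.52, -0.33 and 0.63, with control 1 at the lower limit of the deposited ratios. Cirrhotic samples read 2.02, 1.56, 0.83, 0.22 and 1.75, and carcinomas -0.03, -0.20, -0.63, -0.55 and -1.11. All carcinomas lay below all cirrhotic samples and within the wide control range. Carcinoma minus cirrhotic was -1.78 (-3.13 to -0.43, limma adjusted p = 0.261), a 3.43-fold lower ratio. Cirrhotic minus control was 1.91 (0.56 to 3.26, limma adjusted p = 0.374), and carcinoma minus control was 0.13. Trend-removed, carcinoma minus cirrhotic was -1.39 and the 2 groups overlapped.

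Slco1a3 encodes a close relative first described in kidney, and probes for such near copies may share signal, so its values are uncertain as those of 1 gene. Controls read -0.99, 0.02, 1.46, -1.01 and 1.20, cirrhotic samples 0.10, 2.10, 0.03, 1.54 and 2.91, and carcinomas -0.68, -1.64, -0.58, -0.39 and -1.41. As for Slco1a1, every carcinoma was below every cirrhotic sample. The difference was -2.28 (-3.56 to -1.002, limma adjusted p = 0.224), a 4.85-fold lower ratio, and carcinoma minus control was -1.08 (-2.35 to 0.20). Its trend-removed difference was -1.88, and the groups then overlapped.

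The other Slco carriers did not show this pattern. Slco1a4, which encodes Oatp1a4, also of the hepatocyte, had differences of 0.77, 1.05 and 0.28. Slco1b2, the rodent counterpart of the human liver OATP1B carriers, had -1.01 (-2.02 to 0.01), -0.74 and 0.26. The prostaglandin carrier Slco2a1 had 1.11, 0.53 and -0.59. Each of these intervals included 0, and the trend-removed value of Slco1b2 was -0.19 in cirrhotic minus control.

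Slc22a7 encodes OAT2, an organic anion carrier of liver. Its values were 0.57, -1.45, 0.17, -2.31 and -1.64 in controls, 1.18, -1.07, 0.00, -0.39 and 0.07 in cirrhotic samples, and 0.69, 1.95, -0.59, -0.93 and 1.80 in carcinomas. Controls and carcinomas overlapped, with carcinomas 2 and 5 highest. Carcinoma minus control was 1.52 (0.14 to 2.89, limma adjusted p = 0.645), and the trend-removed difference was 1.63.

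Slc22a25 belongs to the same family. It read -0.47, 0.02, -1.37, -0.95 and -0.45 in controls, -0.94, -0.91, 0.39, 0.09 and -0.01 in cirrhotic samples, and -0.01, 1.75, 0.71, 0.67 and 0.29 in carcinomas. Only carcinoma 1 and control 2 overlapped. The carcinoma minus control difference was 1.33 (0.32 to 2.33, limma adjusted p = 0.564), and the trend-removed one was 1.26 with no overlap. The kidney carriers Slc22a6 (OAT1) and Slc22a8 (OAT3) differed by -0.96 and -0.23 in that comparison, with intervals that included 0.

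Monocarboxylate carriers move lactate, pyruvate and ketone bodies. Slc16a1, which encodes MCT1, had differences of 0.98, 0.11 and -0.86, and Slc16a7, which encodes MCT2, had 0.03, 0.75 and 0.73. Control 1 of Slc16a7 read -2.39, at the lower limit, while its other controls ran from -0.21 to 0.89. All 6 intervals included 0. The remaining members of the class, Slc13a1, Slc13a2, Slc13a3, Slc16a8 and Slc22a23, differed by -0.88 to 1.04 in cirrhotic minus control.

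**Figure D3:**
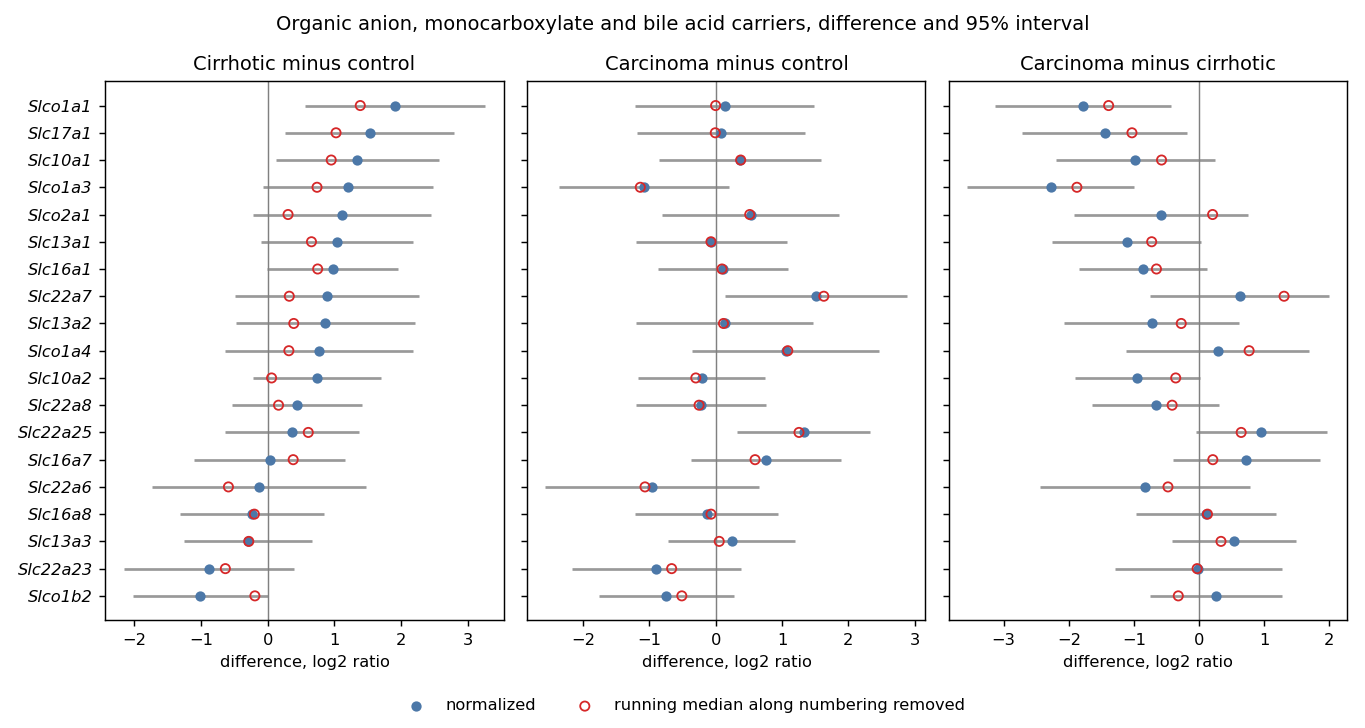
Differences in log2 ratio with 95% limma intervals for the 19 organic anion carriers in cirrhotic minus control, carcinoma minus control and carcinoma minus cirrhotic liver. Filled points are the quantile-normalized values and hollow points are trend-removed values. Slco1a3 is the lowest filled point in carcinoma minus cirrhotic at -2.28 and -1.88 when hollow.

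Amino acid and peptide carriers had medians of 0.66, -0.02 and -0.22 in the order used above, with 12, 8 and 6 of 17 above 0. In cirrhotic minus control the highest was Slc15a2 at 1.89 and the lowest was the cationic amino acid carrier Slc7a7 at -1.34.

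Slc15a2 encodes PEPT2, a proton-driven carrier of short peptides. Controls read -0.99, -1.27, -1.75, -0.41 and -0.61, cirrhotic samples 1.25, -0.55, 2.49, -0.01 and 1.28, and carcinomas 0.91, 2.53, -0.17, 0.57 and 1.36. Every carcinoma lay above every control, and only cirrhotic 2 fell into the control range. Carcinoma minus control was 2.04 (0.77 to 3.32, limma adjusted p = 0.485), a 4.12-fold higher ratio, and cirrhotic minus control was 1.89 (0.62 to 3.17, limma adjusted p = 0.354). Carcinoma and cirrhotic samples differed by 0.15 (-1.13 to 1.42). Trend-removed, the differences from control were 1.93 and 1.46. The other peptide carriers, Slc15a1 (PEPT1) and Slc15a4, differed from control by 1.08 and 0.31 in cirrhotic liver and by 0.21 and -0.97 in carcinoma. Control 2 of Slc15a1 read -3.36, at the lower limit.

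Slc7a3 encodes CAT3, a carrier of arginine and lysine. It read -0.47, -0.02, -0.98, -0.58 and -1.55 in controls, 0.51, -0.49, 2.89, 0.40 and 0.14 in cirrhotic samples, and -0.01, 2.04, -0.10, -0.07 and 0.47 in carcinomas. Cirrhotic 3 stood highest and cirrhotic 2 lay among the controls. Cirrhotic minus control was 1.41 (0.19 to 2.63, limma adjusted p = 0.44), but 0.86 without cirrhotic 3 and 0.98 (-0.24 to 2.20) when trend-removed. The related Slc7a1 (CAT1) differed by 0.58, 0.10 and -0.47.

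The glutamate carriers were lower in carcinoma than in cirrhotic liver for Slc1a1 and Slc1a6. Slc1a1, which encodes EAAT3, read 1.79, 1.65, 0.70, -0.60 and 1.13 in cirrhotic samples and -0.75, 0.70, -0.69, -0.85 and -0.03 in carcinomas, which overlapped. The difference was -1.26 (-2.50 to -0.01, limma adjusted p = 0.375), and the control 1 value of -2.39 was at the lower limit. Slc1a6, which encodes EAAT4, read 0.07 to 1.24 with a median of 0.35 in cirrhotic samples and -1.44 to 0.13 with a median of -0.70 in carcinomas, and differed by -1.16 (-2.25 to -0.07, limma adjusted p = 0.355). Their trend-removed differences were -1.04 and -0.79, with intervals that included 0. The astrocyte carriers Slc1a2 (GLT-1) and Slc1a3 (GLAST) differed by -0.41 and -0.87 in that comparison.

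Slc3a1 encodes rBAT, the subunit that brings the cystine carrier Slc7a9 to the membrane. Cirrhotic samples read 0.14, 2.02, -1.42, 3.17 and 0.52, and carcinomas -1.39, -3.75, -0.26, -0.21 and -0.03. The groups overlapped, with carcinoma 2 lowest and cirrhotic 4 highest. Carcinoma minus cirrhotic was -2.01 (-3.70 to -0.32, limma adjusted p = 0.306), and -1.34 (-3.08 to 0.39) in trend-removed values. Slc7a9 itself differed by 0.14 (-1.24 to 1.51).

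Slc7a5 (LAT1), a carrier of leucine and other large neutral amino acids, and its partner subunit Slc3a2 (4F2hc) differed by 0.48 and 0.89 in carcinoma minus control. Control 2 of Slc7a5 (-3.36) and control 1 of Slc3a2 (-2.39) were at the lower limit. The other Slc7a5 controls ran from -1.65 to 1.71, and its carcinomas from -1.28 to 1.80. The glutamine carrier Slc1a5 (ASCT2) differed by -1.04, -0.48 and 0.56. The alanine and glutamine carriers Slc38a1 (SNAT1) and Slc38a2 (SNAT2) differed by -0.82 and -1.20 in cirrhotic minus control and by -0.94 and -0.69 in carcinoma minus control. Every interval here included 0. Trend-removed, Slc38a2 was at -0.31 in cirrhotic minus control, while Slc38a1 in carcinoma minus control was at -0.995 and had an unadjusted p under 0.05.

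Neurotransmitter and family 6 carriers had the highest class median in cirrhotic minus control, 0.91 with 15 of 16 above 0, and the lowest in carcinoma minus cirrhotic, -1.04 with 1 of 16 above 0. Carcinoma minus control was -0.24 with 6 above 0. All but 1 of these probes, Slc17a6, have numbers under 2000. The trend-removed class medians were 0.43, -0.29 and -0.61. The ratio table has no detection call, so whether these transcripts were above background in liver was not measured. Sample medians of the class ran from -0.85 to 0.07 in controls, 0.01 to 1.04 in cirrhotic samples and -1.66 to 0.24 in carcinomas, so all groups overlapped.

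Slc6a15 encodes a sodium-driven carrier of branched-chain amino acids and proline. Controls read -2.39, -1.66, -0.03, -4.14 and -0.04, with control 1 at the lower limit, and cirrhotic samples read 1.08, 0.45, 0.17, 1.01 and 0.97. Carcinomas read 0.12, -0.67, -1.66, -2.47 and 1.36. Cirrhotic samples were close together and above every control, while controls and carcinomas were widely spread. The difference was 2.39 (0.63 to 4.15, limma adjusted p = 0.391), a 5.23-fold higher ratio, and 1.87 in trend-removed values, where the groups still did not overlap.

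Slc6a18 encodes a neutral amino acid carrier of kidney. Cirrhotic samples read 0.20, 1.21, 0.19, 0.94 and 1.73, carcinomas -1.25, -0.02, -2.28, -0.26 and -1.63, and controls -0.28, -0.73, 0.36, -0.95 and 0.42. Every carcinoma was below every cirrhotic sample. The difference was -1.94 (-3.06 to -0.82, limma adjusted p = 0.224), and the trend-removed value was -1.37 with overlap.

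The vesicular carriers Slc18a2 (VMAT2), which loads monoamines into vesicles, and Slc18a3 (VAChT), which loads acetylcholine, gave similar values. Slc18a2 read 0.61, 1.96, 0.22, 1.12 and 0.53 in cirrhotic samples, 0.03, -0.89, -0.96, -0.75 and -0.08 in carcinomas, and 0.29, -2.41, -0.03, -0.80 and -0.30 in controls. Slc18a3 read 0.68, 1.41, 0.51, 0.81 and 1.96 in cirrhotic samples, -0.03, -0.13, -1.66, -2.35 and -0.54 in carcinomas, and -1.70, -0.63, 0.97, -1.78 and 0.58 in controls. For both, cirrhotic samples lay above all carcinomas, and only a control or a pair of controls reached them. Carcinoma minus cirrhotic was -1.42 (-2.53 to -0.31) for Slc18a2 and -2.02 (-3.29 to -0.75) for Slc18a3, with limma adjusted p of 0.268 and 0.224. Cirrhotic minus control was 1.54 and 1.59, with limma adjusted p of 0.379 and 0.413. The trend-removed carcinoma minus cirrhotic differences were -1.10 and -1.68, and the groups still did not overlap.

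Slc6a4, the serotonin carrier, differed by -1.76 (-3.27 to -0.24, limma adjusted p = 0.315) in carcinoma minus cirrhotic, but by -1.12 without carcinoma 5, which read -3.62, and by -1.36 (-2.85 to 0.13) when trend-removed. The cirrhotic samples ran from -0.98 to 2.10 with a median of 0.73, and the carcinomas from -3.62 to 0.40 with a median of -0.25. Slc6a6, the taurine carrier, whose substrate is conjugated to bile acids in liver, differed by 1.07, -0.67 and -1.75. The GABA and taurine carrier Slc6a13 differed by 0.91, 0.52 and -0.39. All intervals of Slc6a6 and Slc6a13 included 0. In trend-removed values 2 more carriers had an unadjusted p under 0.05 in carcinoma minus control, the vesicular GABA carrier Slc32a1 at 1.32 and the GABA carrier Slc6a11 at -1.66.

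Ion carriers had medians of 0.25, -0.19 and -0.59, with 15, 11 and 5 of 24 above 0. The class held the carrier with the smallest adjusted p in cirrhotic minus control.

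Slc9a3 encodes NHE3, which exchanges sodium for protons in kidney tubule, gut and bile duct epithelium. Controls read -0.38, -1.01, -2.20, -0.51 and 0.21, cirrhotic samples 3.09, 1.25, 1.35, 0.77 and 1.22, and carcinomas 0.26, -0.02, -1.98, -0.21 and -1.80. The cirrhotic samples lay above all controls and all carcinomas, which overlapped each other, and cirrhotic 1 was highest. Cirrhotic minus control was 2.32 (1.11 to 3.52, limma adjusted p = 0.307), a 4.98-fold higher ratio. Carcinoma minus cirrhotic was -2.28 (-3.49 to -1.08, limma adjusted p = 0.224), and carcinoma minus control 0.03 (-1.17 to 1.23). The first 2 trend-removed differences were 1.95 (0.79 to 3.11) and -1.90 (-3.07 to -0.74), again without overlap.

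The next exchanger, Slc9a4 (NHE4), read -0.49 to 2.49 with a median of 0.91 in cirrhotic samples and -2.39 to 0.54 with a median of -0.78 in controls. It differed by 1.501 (0.12 to 2.88, limma adjusted p = 0.486), or 1.14 (-0.21 to 2.49) when trend-removed, and its lowest control was at the lower limit. Slc9a5 differed by -0.52 in that comparison and by -1.19 in carcinoma minus control.

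The chloride cotransporters of family 12 differed among themselves. Slc12a1 (NKCC2), the target of loop diuretics in kidney, read -2.39, -0.70, -0.82, -1.25 and 0.02 in controls and -0.31, 0.73, 0.32, 0.13 and 0.85 in cirrhotic samples, and differed by 1.37 (0.19 to 2.56, limma adjusted p = 0.438). The lowest cirrhotic sample lay within the control range, and control 1 was at the lower limit. Slc12a2 (NKCC1), found in many tissues, read -1.46, 1.62, 1.18, 0.11 and 2.53 in cirrhotic samples and -3.02, -0.02, -0.60, -0.04 and -2.49 in carcinomas, and differed by -2.03 (-3.72 to -0.34, limma adjusted p = 0.298). Slc12a3 (NCC), the thiazide-sensitive carrier, read -0.92, 1.16, 1.49, 0.92 and 1.59 against -0.47, -0.23, -0.78, -1.38 and -0.07, and differed by -1.44 (-2.58 to -0.29, limma adjusted p = 0.273). For Slc12a3, cirrhotic 1 alone lay among the carcinomas. In the order Slc12a1, Slc12a2 and Slc12a3, trend-removed differences were 0.90 (-0.14 to 1.94), -1.84 (-3.43 to -0.26) and -1.07 (-2.22 to 0.08), of which only the second excluded 0.

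Slc26a2 encodes a sulfate carrier. Cirrhotic samples read -0.88, -1.91, -0.09, -2.62 and -0.15, carcinomas 0.19, 1.70, 2.18, 0.95 and 0.05, and controls 0.56, 1.97, -1.28, -1.31 and -0.59. Every carcinoma was above every cirrhotic sample, and controls spanned both. The difference was 2.15 (0.78 to 3.52, limma adjusted p = 0.234), a 4.43-fold higher ratio, and the trend-removed one was 1.57 (0.26 to 2.88) with overlap. The related sulfate carrier Slc26a1 differed by 0.09 (-1.24 to 1.42), or by 0.81 (-0.24 to 1.86) when trend-removed.

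Bicarbonate carriers take part in bile secretion and acid-base balance. Slc4a2 (AE2), which exchanges chloride for bicarbonate in bile duct and hepatocyte membranes, differed by 1.21 (-0.33 to 2.74), 0.19 and -1.02. Slc4a4 (NBCe1) differed by -0.76, -0.34 and 0.41, and Slc4a1, the band 3 protein of red cells, by -0.02, -0.79 and -0.77. Every interval included 0. The 2 probes of the phosphate carrier Slc34a1 disagreed, at 0.89 and -0.04 in cirrhotic minus control and at 0.38 and -0.88 in carcinoma minus control. The ion carriers not named differed by -0.51 to 0.66 in cirrhotic minus control.

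Carriers of organic cations and choline had medians of 0.07, -0.55 and -0.55, with 4, 2 and 1 of 6 above 0. The diet of the cirrhotic and carcinoma groups lacked choline. Slc5a7 encodes the high-affinity choline carrier of cholinergic nerves. It read -0.03, 0.98, -2.04, -0.22 and 0.52 in controls, -0.93, 0.88, 0.19, 1.75 and 2.04 in cirrhotic samples, and -2.07, 0.80, -0.34, -0.13 and -2.23 in carcinomas. All groups overlapped. Carcinoma minus cirrhotic, which share the diet, was -1.58 (-2.99 to -0.17, limma adjusted p = 0.327), or -1.46 (-2.68 to -0.24) when trend-removed. Against control, neither group had an unadjusted p under 0.05 for Slc5a7. Slc44a1, the choline carrier found in most tissues, differed by -0.58 (-1.85 to 0.69), -0.81 (-2.08 to 0.46) and -0.23. The kidney cation carrier Slc22a2 (OCT2) differed by 1.08, 0.57 and -0.51, and the carnitine carrier Slc22a5 (OCTN2) by 0.03, -0.62 and -0.65, with all intervals including 0. Slc22a3 and Slc22a4 differed by 0.10 and -0.43 in cirrhotic minus control.

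Sugar carriers had medians of 0.07, -0.23 and -0.21, with 3, 0 and 1 of 5 above 0, and none had an unadjusted p under 0.05. Slc2a2 (GLUT2), the main glucose carrier of hepatocytes, differed by -0.10 (-1.63 to 1.42), -0.24 and -0.14. Slc37a4, which brings glucose 6-phosphate into the endoplasmic reticulum for glucose release, differed by 0.07, -0.14 and -0.21. Slc2a4 (GLUT4), the insulin-responsive carrier of muscle and fat, differed by -0.29, -0.23 and 0.05. The sodium-glucose carriers Slc5a1 and Slc5a2 differed by 0.58 and 0.54 in cirrhotic minus control. The intervals of Slc2a2 reach past 1 in both directions, so a 2-fold difference either way lay within them.

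Mitochondrial carriers had medians of 0.19, 0.12 and -0.16, with 4, 4 and 3 of 7 above 0, and the lowest within-group spread of the classes, with a median SD of 0.68. Slc25a10, which exchanges malate or succinate for phosphate, read 0.65, 0.92, 0.77, 1.66 and -0.65 in controls and -0.27, -0.73, -1.43, -0.39 and 0.01 in cirrhotic samples. Only control 5 fell into the cirrhotic range. The difference was -1.23 (-2.25 to -0.21, limma adjusted p = 0.421), but -0.41 (-1.35 to 0.52) when trend-removed. Slc25a5 (ANT2), the ADP/ATP carrier of growing cells, differed by 0.82 (-0.22 to 1.86), 0.51 and -0.31. Slc25a20, which carries acylcarnitines into mitochondria for fatty acid oxidation, differed by 0.19, -0.35 and -0.54. Trend-removed values of Slc25a20 differed by -0.60 in carcinoma minus control and -0.94 in carcinoma minus cirrhotic, and the carcinomas then lay below all other samples.

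Metal carriers had medians of 0.10, 0.04 and 0.19, with 4, 3 and 4 of 6 above 0. Slc30a2 encodes ZnT2, which moves zinc out of the cytosol. Controls read -0.40, -0.04, -0.87, 0.00 and -0.67, cirrhotic samples 0.09, -0.95, 0.68, -0.52 and -0.44, and carcinomas 0.50, 0.48, 3.33, 0.75 and 0.51. Every carcinoma was above every control, with carcinoma 3 far above the others. Carcinoma minus control was 1.51 (0.38 to 2.64, limma adjusted p = 0.564), and 0.96 without carcinoma 3. Carcinoma minus cirrhotic was 1.34 (0.21 to 2.48, limma adjusted p = 0.306), and 0.79 without carcinoma 3. The trend-removed differences were 1.45 (0.50 to 2.40) and 0.84 (-0.11 to 1.79), so the second interval then included 0. The plasma membrane zinc exporter Slc30a1 differed by 0.24, 1.04 and 0.80 and had the widest spread of any carrier.

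Slc31a1 (CTR1), the copper uptake carrier, read -0.03 to 1.82 with a median of 0.74 in controls and -1.75 to 0.55 with a median of -0.04 in cirrhotic samples. It differed by -1.17 (-2.28 to -0.05, limma adjusted p = 0.504), and by -0.27 (-1.22 to 0.69) when trend-removed. The iron exporter Slc40a1 (ferroportin) differed by -0.56, -0.39 and 0.17, and the iron carrier Slc11a2 (DMT1) by 0.67, 0.46 and -0.20, with intervals that included 0.

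Carriers of other substrates had medians of 0.20, 0.24 and 0.20, with 10, 9 and 7 of 13 above 0. Slc29a1 (ENT1), which equilibrates nucleosides across the membrane, read -1.03, -1.01, -1.67, -1.01 and 0.00 in cirrhotic samples and -0.03, 1.57, 0.68, 0.66 and 0.32 in carcinomas. The 2 groups overlapped only through cirrhotic 5 and carcinoma 1. The difference was 1.58 (0.37 to 2.80, limma adjusted p = 0.266), and 1.01 (-0.06 to 2.08) when trend-removed. The sodium-driven nucleoside carrier Slc28a2 differed by 0.08, 0.49 and 0.41.

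Slc5a6 (SMVT), which carries biotin and pantothenate, read -1.05, -0.83, 0.07, -1.77 and -0.22 in controls and 0.12, -0.38, 0.24, 1.18 and 2.06 in cirrhotic samples. Cirrhotic 2 lay within the control range. The difference was 1.40 (0.12 to 2.69, limma adjusted p = 0.483), and 0.77 (-0.29 to 1.83) when trend-removed. Slc27a2, which activates and takes up very long-chain fatty acids, differed by -1.19 (-2.51 to 0.13), -0.61 and 0.57. The vitamin C carriers Slc23a1 and Slc23a2, with neighbouring probe numbers, differed by 0.05 to 0.37 in all 3 comparisons.

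**Figure D4:**
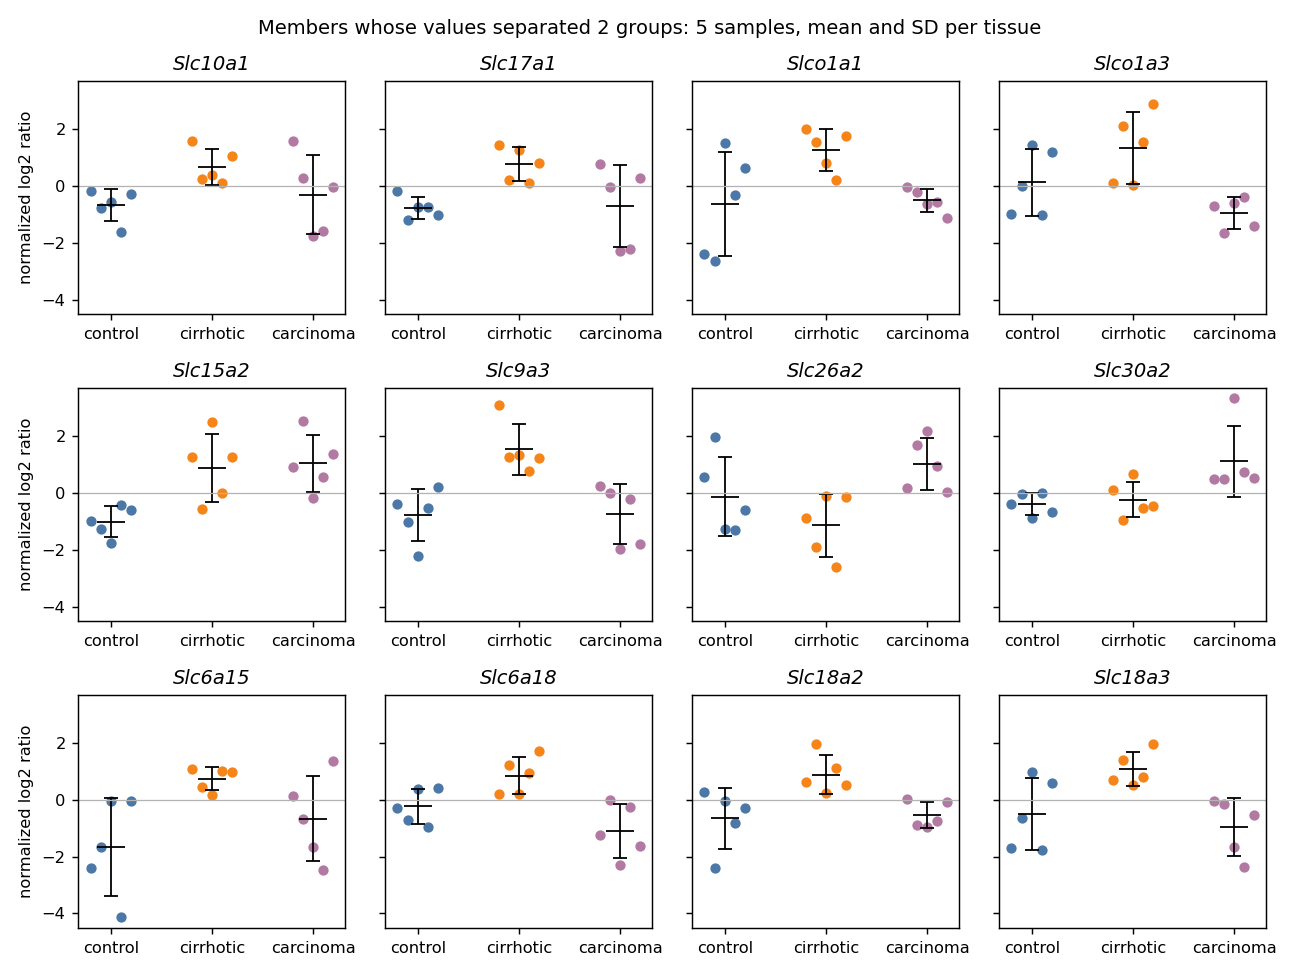
Log2 ratios by sample for the 12 solute carriers that separated a pair of groups completely, with 5 points per tissue and the mean ± SD. Slc9a3 cirrhotic samples lie between 0.77 and 3.09 and above every control and carcinoma, and Slc15a2 carcinomas lie between -0.17 and 2.53 and above every control.

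Other parts of the transport system were read from lists of genes. Of 28 ABC pumps and sodium pump subunits listed, 15 were measured by 16 probes, with medians of 0.38, 0.09 and 0.00 in the 3 comparisons. Trend-removed medians were 0.18, 0.15 and -0.11. None passed adjustment. At an unadjusted p under 0.05, 1 was lower in cirrhotic minus control, against 5.62% of all probes. It was Abcb6 at -1.14, or -0.37 when trend-removed. In carcinoma minus cirrhotic 1 was higher and 2 lower, against 6.95% and 6.28% of all probes. The 1 higher has a probe number from 2000 upward (11.8% of all probes there) and the 2 lower under 2000 (12.05%). Abcb1b, a drug efflux pump, differed in carcinoma minus cirrhotic by -1.48 (-2.49 to -0.47). Abcc5, an exporter of cyclic nucleotides, differed by -1.25 (-2.42 to -0.08). The probes of Abcb4, the phospholipid pump of bile, disagreed at -1.03 and 1.90, so no direction is given for it.

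Of 19 transcription factors known to act on transporter genes, 17 were measured, with medians of -0.35, 0.49 and 0.26 (trend-removed -0.13, 0.32 and 0.49) and none past adjustment. At an unadjusted p under 0.05, 1 was higher and 1 lower in cirrhotic minus control, against 4.02% and 5.62% of all probes. In carcinoma minus control 1 was higher, against 3.65%. In carcinoma minus cirrhotic 4 were higher and 0 lower, against 6.95% and 6.28%. Those 4 all have probe numbers from 2000 upward, where 11.8% of all probes were higher. Nr0b2 (SHP), a repressor of bile acid synthesis genes, differed by 1.64 in carcinoma minus control and 2.26 in carcinoma minus cirrhotic, with all carcinomas above the other samples. The trend-removed values of Nr0b2 were 1.88 and 1.66. Cebpb, a liver transcription factor, differed by 1.98 in cirrhotic minus control with no overlap, and by 1.03 when trend-removed. Hnf4a, a hepatocyte factor, differed by -1.06 (-2.07 to -0.05), 0.49 and 1.54 (0.53 to 2.55), and its trend-removed values were -0.35, 0.62 and 0.97. Cebpa and Nfe2l2 were the other 2 higher in carcinoma than in cirrhotic liver, at 1.87 and 1.36.

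Marker genes of liver cell types were read as differences only, since the ratios hold no level and the labelled tissues could not be checked against the presence of markers. The 10 hepatocyte markers had medians of 0.23, 0.67 and 0.66 (trend-removed 0.21, 0.99 and 0.56). Their sample medians ran from -1.01 to 0.32 in controls, -1.59 to 1.35 in cirrhotic samples and -0.12 to 0.74 in carcinomas, so the groups overlapped. Members of the list went in different directions. At an unadjusted p under 0.05, 2 were higher and 1 lower in cirrhotic minus control, against 4.02% and 5.62% of all probes. In carcinoma minus cirrhotic 3 were higher and 1 lower, against 6.95% and 6.28%. In cirrhotic minus control the 2 higher were Otc, an enzyme of the urea cycle, at 2.28 and the apolipoprotein Apoa1 at 2.35. The 1 lower was Hnf4a at -1.06. In carcinoma minus cirrhotic the 3 higher were Ttr at 1.915, Hnf4a at 1.54 and Cps1 at 1.29. Otc was the 1 lower there, at -3.04. Otc and Apoa1 have probe numbers under 2000, and Ttr, Hnf4a and Cps1 from 2000 upward.

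Markers of stellate cells and fibroblasts (7 of 9 measured) had medians of -0.14, 0.24 and 0.82 (trend-removed -0.24, 0.30 and 0.54). In cirrhotic minus control 3 of these 7 were lower at an unadjusted p under 0.05, against 5.62% of all probes, and 0 higher (4.02%). They were the intermediate filament gene Vim at -1.37 and the collagen genes Col3a1 at -1.34 and Col1a1 at -1.11, with trend-removed values of -0.81, -0.92 and -0.26. These 3 have probe numbers from 2000 upward, where 10.9% of all probes were lower. In carcinoma minus cirrhotic 2 were higher and 1 lower, against 6.95% and 6.28% of all probes. The higher were Col3a1 at 1.92 and Col1a1 at 1.12, or 1.55 and 0.56 when trend-removed. Both have probe numbers from 2000 upward, where 11.8% of all probes were higher. The lower was Pdgfrb at -1.53, or -1.14 when trend-removed, with a number under 2000, where 12.05% of all probes were lower.

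Macrophage markers (3 of 7) had medians of 0.22, 0.66 and 1.35, which were -0.20, 0.49 and 0.69 when trend-removed. Bile duct (3 of 7), lymphocyte (4 of 8), endothelial (2 of 6) and erythroid markers (3 of 5) had medians of -0.14, 0.05, -0.15 and 0.18 in cirrhotic minus control. When trend-removed these were 0.039, -0.080, 0.031 and 0.61, so the first 3 turned sign. In carcinoma minus cirrhotic they were -0.07, 0.20, -0.65 and -0.50, or -0.14, 0.11, -0.70 and -0.28 when trend-removed. The erythroid marker Slc4a1 is itself among the carriers, and Hnf4a is in both the transcription factor and the hepatocyte lists. No marker passed adjustment in limma, and the part of cell composition in the carrier differences was not tested.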

How the data were processed

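Per the labels, 15 arrays of total RNA were grouped by title into control, noncancerous cirrhotic liver and carcinoma. The values deposited by the authors are linear ratios, and each of the 3757 probes has a median of 1 (within 1e-06) over the 15 arrays. The array type, dyes, scanner, normalization and direction of the ratios are not stated by any label or header, and the lower limit of 0.01 was found from the values. Ratios were quantile-normalized, taken to log2 and fitted with limma 3.58.1 (R 4.3.3, lmFit and eBayes with trend) on group over all 15 samples (12 residual degrees of freedom), with Benjamini-Hochberg adjustment. The fit was tested on simulated data. The precision is limited by 5 arrays per group. Complete separation means that no sample of one group reaches the other. Genes were named from the platform annotation and RefSeq. Carriers were named in the text if they separated 2 groups, had an unadjusted p under 0.05 or were on a list of 56 hepatocyte and growth-related carriers, of which 44 were measured. Further carriers, named beside these as relatives, and a few listed transport and factor genes were picked after their values were seen. The members and lists were chosen with earlier results of these data known. Alternatives covered scaling, the probe numbering, the limit values, the fit, the replicate number and single samples.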

Additional observations from a re-analysis of the deposited data

Results flagged for a closer look

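Within groups of 5 samples, the named carriers were searched for a sample whose gap to its neighbour exceeded Dixon's 95% critical value. Of 186 groups 10 had such a sample, where chance gives about 9.3. Of the 10, 3 were in cirrhotic 1, at 2.49 for the glucose carrier Slc2a2, 3.09 for the sodium-proton exchanger Slc9a3 and -0.92 for the chloride carrier Slc12a3. Carcinoma samples gave 4, which were Slc4a4 in carcinoma 1 at -3.88, Slc7a3 in carcinoma 2 at 2.04, Slc30a2 in carcinoma 3 at 3.33 and Slc11a2 in carcinoma 4 at -1.38. The others were Slc15a1 in control 2 at -3.36, Slc22a8 in cirrhotic 4 at 1.42 and Slc3a2 in cirrhotic 5 at -3.41. Slc4a4 in carcinoma 1 and Slc15a1 in control 2 were at the lower limit of the deposited ratios.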

How the results depend on the processing

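No carrier passed adjustment under any alternative tried, and none of the 35 carrier differences at an unadjusted p under 0.05 changed sign. Removing the trend along the probe numbering gave 6, 8 and 11 carriers at an unadjusted p under 0.05 (main values 14, 4 and 17) in cirrhotic minus control, carcinoma minus control and carcinoma minus cirrhotic. The carriers' medians became 0.19 and -0.28 in the first and last, amino acid carriers 0.34 and organic anion carriers 0.32 in the first, and organic anion, mitochondrial and other carriers -0.32, 0.38 and -0.093 in the last. Deposited ratios gave 11 carriers and a median of -0.28 in carcinoma minus cirrhotic, and median scaling a median of -0.26. Both raised amino acid carriers to 1.04 and sugar carriers to 0.58 in cirrhotic minus control. Flooring low ratios moved ion carriers to 0.076 and leaving out limit probes moved metal carriers to -0.39, both in carcinoma minus control. Without control 1 and cirrhotic 1 together, 9 carriers (7.96% against 8.36% of all probes) had an unadjusted p under 0.05 in carcinoma minus control and sugar carriers were at -0.31 in cirrhotic minus control. The cause was not tested.

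Leaving out 1 sample at a time gave 9 carriers (without control 4, 7.96% against 7.77% of all probes) to 22 (without control 5, 19.5% against 14.1%) in cirrhotic minus control. The range was 3 (2.65% against 5.59%) to 7 (without control 1, control 2 or carcinoma 4, 6.19% against 7.56% to 9.72%) in carcinoma minus control. It was 11 (without cirrhotic 2, 9.73% against 8.94%) to 22 (19.5% against 15.1%) in carcinoma minus cirrhotic. Carrier medians then ran from -0.12 to 0.11 and from -0.50 to -0.29 in the last 2 comparisons. In cirrhotic minus control the ranges were 0.40 to 0.96 for amino acid, -0.043 to 0.51 for sugar, -0.29 to 0.27 for metal and -0.062 to 0.39 for other carriers. Ion carriers ran from -0.41 to -0.14 in carcinoma minus control. In carcinoma minus cirrhotic, organic anion carriers ran from -0.79 to -0.32, sugar from -0.68 to -0.10 and other from -0.19 to 0.25. Same-numbered cirrhotic and carcinoma samples correlated from -0.24 to 0.39 in their deviations from the group means. Not every sample correlated best with its own number. Control 5 and cirrhotic 2, from different diets, correlated at 0.60, so this check cannot decide which samples share an animal. The numbers were not treated as pairs in the main fit. The replicate block gave 17, 5 and 18 carriers, which were 15.04%, 4.42% and 15.9% against 9.85%, 7.29% and 13.5% of all probes. With 5 arrays per group the median carrier's 95% interval reached 1.28 to each side.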
